A study of Bos taurus with 28 samples.

Results

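GABRA4 encodes the alpha-4 subunit of the GABA-A receptor, and its reads were followed here across uterine biopsies of 28 heifers. The gene (ENSBTAG00000016645) is 1 of the 24596 gene IDs in the count files. It was chosen by its difference between treatments in these data and by its spread among heifers. Its levels and its co-variation with other genes are therefore given as a description with no test. The heifers fell into 3 treatments, 10 inseminated with frozen-thawed semen of 5 high-fertility (HF) bulls, 10 with semen of 5 low-fertility (LF) bulls, and 8 that received no semen (CTRL). All 28 were brought into a synchronized estrus with a progesterone device, gonadotrophin-releasing hormone and prostaglandin, and inseminated heifers were slaughtered 12 h after insemination. Each bull was used in 2 heifers, 1 in each of 2 study replicates, and heifers 1 to 5 of HF and of LF and heifers 1 to 4 of CTRL formed study replicate 1. The labels give a Holstein-Friesian background, whereas the study's animal table lists Limousin, Charolais and other crosses. No source used here gives the age of the heifers.

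GABA is the main inhibitory transmitter of the adult brain, and GABA-A receptors are chloride channels that open when it binds. Each channel is assembled from several subunits, and the choice of alpha subunit sets where the receptor sits and which drugs and steroids act on it. Receptors with the alpha-4 subunit are best known from the rodent thalamus and dentate gyrus, where they lie largely outside synapses, respond to low GABA and are sensitive to steroids derived from progesterone. Outside the brain, the pi subunit (GABRP) is the member best known from the uterus, as described in human and rat. In bulk RNA, fewer cells that express a gene and less RNA per cell cannot be told apart.

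Total counts per heifer ranged between 14872812 and 25633259, with a median of 19315998. Epithelial KRT8 and stromal VIM, which any endometrial sample should hold, had counts in all 28 heifers. The smooth muscle markers that could be named (6 of 12) summed to 574 to 6035 CPM (counts-per-million units, reads of a gene scaled by the effective size of the library) in HF heifers, 407 to 4374 in LF and 757 to 8409 in CTRL, with medians of 1060 in HF, 1832 in LF and 4809 in CTRL, so the smooth muscle RNA of the biopsies differed widely between heifers and was highest at the median in CTRL.

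GABRA4 was high in 5 of 10 HF heifers, in 1 of 10 LF heifers and in 0 of 8 CTRL heifers, and close to absent elsewhere. In HF heifers GABRA4 had 1 to 130 counts, with a median of 21.5 and a sum of 450. In LF heifers it had 0 to 82 counts with a sum of 97, of which 82 came from LF8 alone. In CTRL heifers it had 0 to 4 counts with a sum of 16. On the CPM scale, normalized over all 28 heifers, GABRA4 averaged 2.31 ± 2.69 CPM in HF (SD, n = 10), 0.525 ± 1.41 in LF (n = 10) and 0.109 ± 0.0853 in CTRL (n = 8). The SD exceeded the mean in HF and in LF, so the mean describes few of the heifers in either treatment. The medians were 1.05 CPM in HF, 0.0545 in LF and 0.0795 in CTRL.

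**Figure D1:**
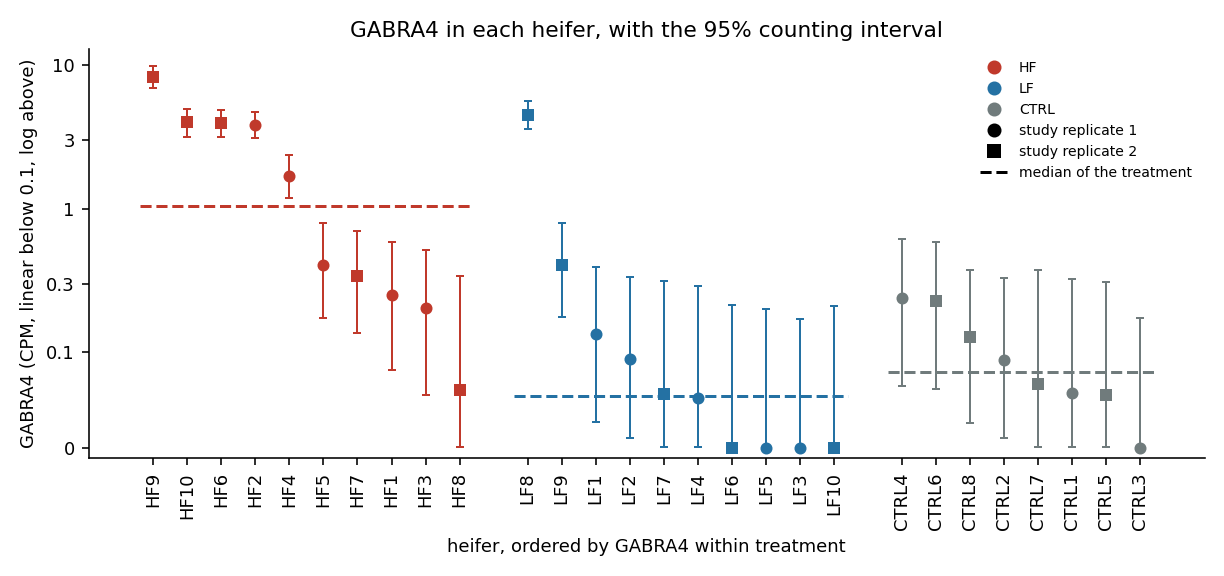
GABRA4 in CPM in each of the 28 heifers, ordered within treatment, with exact 95% Poisson intervals that cover counting error only and a dashed line at the median of each treatment. Circles are study replicate 1 and squares study replicate 2, and 6 heifers (5 HF and LF8) stand above 1 CPM while the other 22 are at or below 0.406 CPM.

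In order of level, HF9 had 8.30 CPM (130 counts), LF8 4.51 (82 counts), HF10 4.0001 (79 counts), HF6 3.95 (86 counts), HF2 3.84 (95 counts) and HF4 1.70 (35 counts). The next heifer, LF9, had 0.406 CPM from 8 counts, a step of 4.20-fold below HF4. HF9 stood apart from the rest, since its 95% counting interval of 6.93 to 9.85 CPM lay above that of LF8 (3.59 to 5.60). LF8, HF10, HF6 and HF2 could not be ordered at this depth because their counting intervals overlapped. The interval of HF4, 1.19 to 2.37 CPM, lay below all of these and above that of LF9 (0.175 to 0.80004). Below this step every heifer had 8 counts or fewer. HF5 and LF9 had 8 counts each, HF7 had 7, HF1 had 5, and HF3, CTRL4 and CTRL6 had 4 each, and their intervals all overlapped. GABRA4 had 0 counts in LF3, LF5, LF6, LF10 and CTRL3, where a count of 0 allows up to 3 counts as a one-sided 95% limit (the two-sided intervals plotted reach 3.69 counts), or 0.139 to 0.175 CPM in the 4 LF heifers and 0.141 CPM in CTRL3.

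The HF and CTRL ranges overlapped. GABRA4 lay above the highest CTRL heifer (CTRL4, 0.240 CPM) in 8 of 10 HF heifers and in 2 of 10 LF heifers. Of all 17781 genes with at least 10 counts, 0.321% had 8 or more HF heifers above every CTRL heifer, a share given as background only, since the same contrast chose the gene. In 3 of those 8 HF heifers (HF1, HF5 and HF7) the excess over CTRL4 was within counting error. The ratio of mean CPM was 21.2 for HF over CTRL. That ratio was 13.1 within study replicate 1 and 27.8 within study replicate 2. It was 22.8 in Limousin crosses and 23.7 in the other breeds, which were not matched between treatments. The other breeds were 4 Charolais and 2 Belgian blue crosses in HF. In CTRL they were 1 each of Aberdeen angus, Charolais, Saler and Simmental crosses. Taken as a ratio of medians, HF over CTRL was 13.3.

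The ratio of LF to CTRL means turned on a single heifer. It was 4.84 with all 10 LF heifers and 0.759 without LF8, with GABRA4 at 0.0825 ± 0.131 CPM in the remaining 9 LF heifers (SD). The ratio of LF to CTRL medians was 0.686. HF means were 4.39 times LF means with LF8 and 27.9 times without it, and the ratio of HF to LF medians was 19.3. LF8 was a Simmental cross. The only other Simmental cross, CTRL3, had 0 counts of GABRA4.

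The spread of GABRA4 among heifers was part of its choice, and its size is a description only. The variance of counts over their mean, which is near 1 when only counting error is at work, was 51.1 in HF, 67.1 in LF and 1.14 in CTRL, where 16 counts over 8 heifers can show little beyond counting error. Without LF8 it was 4.05 in LF. Over all heifers, the 6 with the most GABRA4 held 507 of its 563 counts (90.1%). Among the 1621 genes with total counts between 282 and 1126, the top 6 heifers of each gene held a median of 39.4% of its counts, and 11 genes, GABRA4 included (0.679%), reached the share of GABRA4, a place given as background only, since its spread chose it. The other 10 genes, none of which has a name in the sources used here, were concentrated in other heifers, since at most 2 of their top 6 heifers were among the 6 of GABRA4.

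The 2 heifers inseminated with semen of the same bull often differed in GABRA4. Their counting intervals did not overlap for bulls 6, 7, 9 and 10 of HF and bull 3 of LF, and overlapped for the other 5 bulls, whose heifers all had 8 counts or fewer. For HF bulls, the heifers of study replicates 1 and 2 had 5 and 86 GABRA4 counts for bull 6, 95 and 7 for bull 7, 4 and 1 for bull 8, 35 and 130 for bull 9 and 8 and 79 for bull 10. In CPM the higher of the 2 heifers exceeded the lower by 15.7-fold for bull 6, 11.2-fold for bull 7, 3.34-fold for bull 8, 4.87-fold for bull 9 and 9.91-fold for bull 10. Bull 9 was the only bull with more than 8 counts in each of its heifers, and bull 8 the only HF bull with fewer than 5 in each. Among LF bulls the pairs had 3 and 0 counts for bull 1, 2 and 1 for bull 2, 0 and 82 for bull 3, 1 and 8 for bull 4 and 0 and 0 for bull 5. In 3 HF bulls (6, 7 and 10) and 1 LF bull (3), a heifer with at least 79 counts was paired with one of 8 counts or fewer. The 2 heifers of a bull also differed in study replicate and, for all bulls but 1 and 9, in breed. Within a bull, the effect of the heifer therefore cannot be told apart from that of study replicate and, mostly, breed. With 2 heifers a bull, the effect of a bull was not tested.

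**Figure D2:**
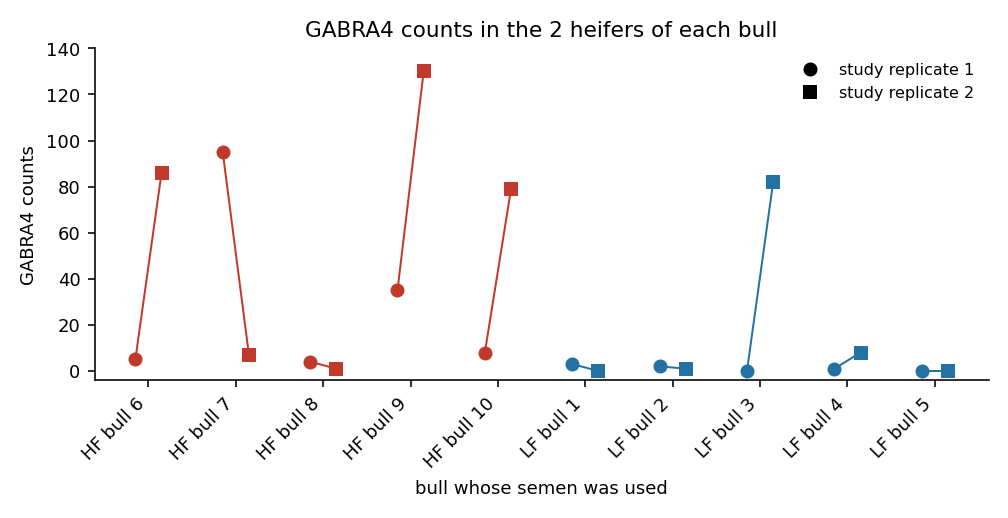
GABRA4 counts (vertical axis) in the 2 heifers inseminated with semen of each bull, with HF bulls on the left and LF bulls on the right, and a line joining the 2 heifers. Only bull 9 has more than 8 counts in both heifers (35 and 130), and bulls 6, 7 and 10 of HF and bull 3 of LF join a heifer with 0 to 8 counts to one with 79 to 95.

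High heifers occurred in both study replicates and in several breeds. In study replicate 1 GABRA4 had 147 counts over 5 HF heifers, 6 over 5 LF heifers and 7 over 4 CTRL heifers. In study replicate 2 it had 303 counts over 5 HF, 91 over 5 LF and 9 over 4 CTRL heifers. Among HF heifers, GABRA4 had 252 counts in 4 Limousin crosses, 95 in 4 Charolais crosses and 103 in 2 Belgian blue crosses, and each of these breeds held at least 1 heifer with 8 counts or fewer. The 4 Limousin crosses of CTRL had 11 counts together. The Belgian blue crosses were all in HF, so for them breed and treatment cannot be told apart.

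Of 19 GABA-A receptor subunits listed, 5 could be tied to an ID, GABRA4 included, and 14 have no name in the sources used here and were not analysed. The other 4 all had reads. None followed the GABRA4 pattern, with Spearman rho against GABRA4 over 28 heifers of 0.02 for GABRA3, -0.07 for GABRQ, -0.13 for GABRE and -0.32 for GABRP, against a range of -0.38 to 0.40 for the central 90% of 15163 genes. GABRP, the pi subunit, had 0.566 to 9.99 CPM in HF heifers (median 1.97), 1.32 to 8.21 in LF (median 3.33) and 0.0569 to 3.40 in CTRL (median 1.47). GABRE, the epsilon subunit, had 5.74 to 27.2 CPM in HF heifers (median 11.7), 5.68 to 26.9 in LF (median 13.5) and 5.99 to 11.9 in CTRL (median 9.23). For GABRP and GABRE the ranges of the 3 treatments overlapped in part. The highest CTRL heifer of GABRE (11.9 CPM) lay below the LF median and close to the HF median. For GABRP the highest CTRL heifer (3.40 CPM) lay close to the LF median. HF4 was the highest HF heifer for both genes.

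GABRA3, the alpha-3 subunit, had 0.293 to 5.99 CPM in HF heifers (median 1.66), 0 to 2.10 in LF (median 0.364) and 0.469 to 9.95 in CTRL (median 1.05). GABRQ, the theta subunit, had 0 to 1.61 CPM in HF heifers (median 0.420), 0 to 0.575 in LF (median 0.149) and 0 to 5.75 in CTRL (median 0.203), with CTRL6 (5.75) and CTRL7 (3.09) far above the rest. These 2 genes varied together (rho 0.79 over 28 heifers), and the heifers at the top of each, CTRL6 and CTRL7, had 4 counts and 1 count of GABRA4. LF8, the LF heifer rich in GABRA4, had 0 counts of GABRA3. GABRA3 and GABRQ also followed the summed smooth muscle markers (rho 0.70 for GABRA3 and 0.51 for GABRQ), whereas GABRA4 did not (rho 0.02).

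**Figure D3:**
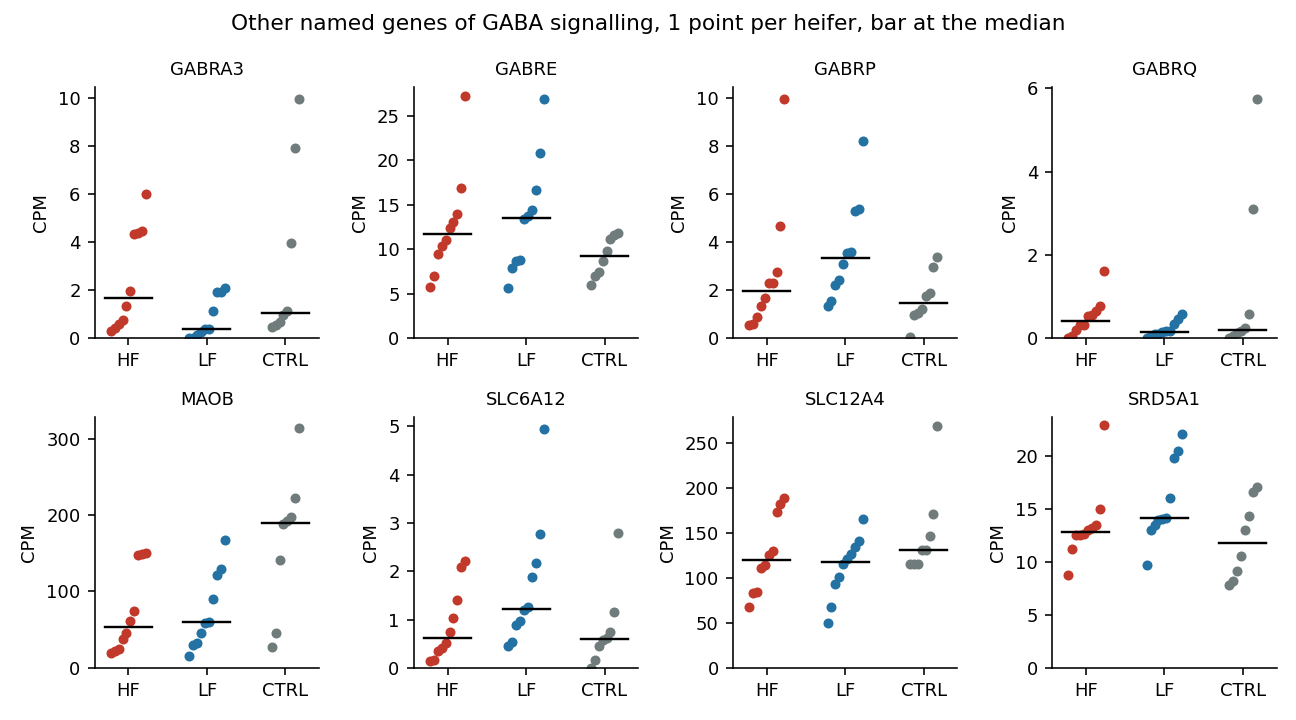
CPM of the 8 other named genes of GABA signalling, 1 point per heifer and a bar at the treatment median, with HF, LF and CTRL from left to right and a separate linear axis for each gene. The treatments overlap for every gene, and the highest points of GABRA3 and GABRQ are the same 2 CTRL heifers.

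Of the remaining GABA lists, 4 genes could be named, 1 in each of 4 lists. MAOB, a mitochondrial amine oxidase that also takes part in GABA synthesis from putrescine in rodent astrocytes, had 19.8 to 150.02 CPM in HF heifers (median 53.2), 15.03 to 167 in LF (median 59.4) and 27.1 to 314 in CTRL (median 190). MAOB was lower at the median in the inseminated heifers, with wide overlap, and it followed the smooth muscle markers closely (rho 0.82 over 28 heifers), which were also lower at the median in HF and LF. The part of muscle in the MAOB values was not tested. SLC6A12, the betaine and GABA transporter, had 0.147 to 2.22 CPM in HF heifers (median 0.623), 0.457 to 4.95 in LF (median 1.22) and 0 to 2.79 in CTRL (median 0.590). SLC12A4, a potassium-chloride cotransporter, had medians of 120 CPM in HF, 118 in LF and 131 in CTRL. SRD5A1, the steroid 5-alpha-reductase on the route from progesterone to the steroids that modulate GABA-A receptors, had medians of 12.8 CPM in HF, 14.1 in LF and 11.8 in CTRL. For these 4 genes rho with GABRA4 lay between -0.25 and 0.10.

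GABRA4 itself did not pass the low-count filter of the edgeR fits, since at most 6 heifers had 10 counts or more. It was within reach of DESeq2 and of the edgeR fits with the lower filter of 10 counts in total, and no test of it is given, since it was chosen by these contrasts. The 8 other genes played no part in the choice of GABRA4 and were tested in fits across all genes of each pair of treatments with edgeR's quasi-likelihood test and Benjamini-Hochberg adjustment. In HF against CTRL 0 of 8 were called by edgeR (background 0% of 14885 genes) and 0 by DESeq2 (background 2.12% of 15459 genes). In LF against CTRL 0 of 7 were called by edgeR (background 0%) and 0 of 8 by DESeq2 (background 0.0104%). In HF against LF 0 of 7 were called by edgeR (background 0%) and 0 of 8 by DESeq2 (background 0.162%). GABRQ was too low for the edgeR filter in the last 2 comparisons.

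At an unadjusted p below 0.05, edgeR held 1 of the 8 genes in HF against CTRL beside 16.03% of all genes, 4 of 7 in LF against CTRL beside 5.65%, and 1 of 7 in HF against LF beside 7.92%. DESeq2 held 1 of 8 in HF against CTRL beside 14.95% of all genes, 5 of 8 in LF against CTRL beside 6.03%, and 2 of 8 in HF against LF beside 7.97%. Most gene names at hand came from a table sorted by the p-value of LF against CTRL, so named genes as a whole lean towards small p-values there, and the share in that comparison says little about GABA genes. The median log2 fold change of the list was -0.04 in HF against CTRL (all genes -0.02), 0.38 in LF against CTRL (all genes 0.01) and -0.12 in HF against LF (all genes -0.03) by edgeR. The value in LF against CTRL rested on the 7 genes tested by edgeR, and by DESeq2 over all 8 it was -0.02 (all genes 0.01). By edgeR, MAOB had a log2 fold change of -1.18 (SE 0.48, adjusted p = 0.241) in HF against CTRL and -1.14 (SE 0.45, adjusted p = 0.874) in LF against CTRL. MAOB passed in a single alternative, HF against CTRL by DESeq2 without CTRL2 (log2 fold change -1.36, adjusted p = 0.0428). That fit called 869 of all 15807 genes with an adjusted p, so the call of MAOB says little about GABA genes. In LF against CTRL, GABRA3 had a log2 fold change of -1.95 (SE 0.80, adjusted p = 0.874) and GABRP one of 1.15 (SE 0.47, adjusted p = 0.874). GABRA3 had a log2 fold change of 1.57 in HF against LF (SE 0.70, adjusted p = 0.591). GABRQ had one of -1.30 in HF against CTRL by edgeR (SE 0.86, adjusted p = 0.469) and of -0.20 by DESeq2 (adjusted p = 0.926), with CTRL6 and CTRL7 the only heifers above 2 CPM.

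In the RefSeq annotation of a later assembly (ARS-UCD2.0), GABRA4 lies in a cluster of receptor genes, with COX7B2, GABRA2, GABRG1, GNPDA2 and GUF1 on one side and GABRB1, COMMD8, ATP10D and CORIN among the nearest on the other. Only COMMD8, a COMM domain protein, could be tied to an ID of the files. COMMD8 had 10.7 to 22.9 CPM in HF heifers (median 17.1), 6.48 to 19.3 in LF (median 16.1) and 13.8 to 21.2 in CTRL (median 19.7). Its rho with GABRA4 was -0.13, and the highest GABRA4 heifer, HF9, had 14.7 CPM of COMMD8. COMMD8 was called in 0 comparisons by edgeR, with log2 fold changes of -0.18 in HF against CTRL (SE 0.14, adjusted p = 0.543), -0.31 in LF against CTRL (SE 0.17, adjusted p = 0.874) and 0.12 in HF against LF (SE 0.17, adjusted p = 0.937). DESeq2 gave adjusted p-values of 0.491, 0.857 and 0.931 in the same order, and its unadjusted p-values were also above 0.05.

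Co-variation was described with Spearman's rho between the normalized level of GABRA4 and that of 15163 genes that passed the low-count filter over 28 heifers. All points share the library of a heifer, and 22 of the 28 hold 8 or fewer counts of GABRA4, so their ranks rest on single reads. Values of rho ran between -0.74 and 0.79, with a median of 0.00 and 98% of genes between -0.49 and 0.53. A name was at hand for 1513 of these genes (9.98%), and for 10 of the 100 with the highest rho. The highest value of all (0.79) belonged to ENSBTAG00000010657, which has no name in the sources used here.

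**Figure D4:**
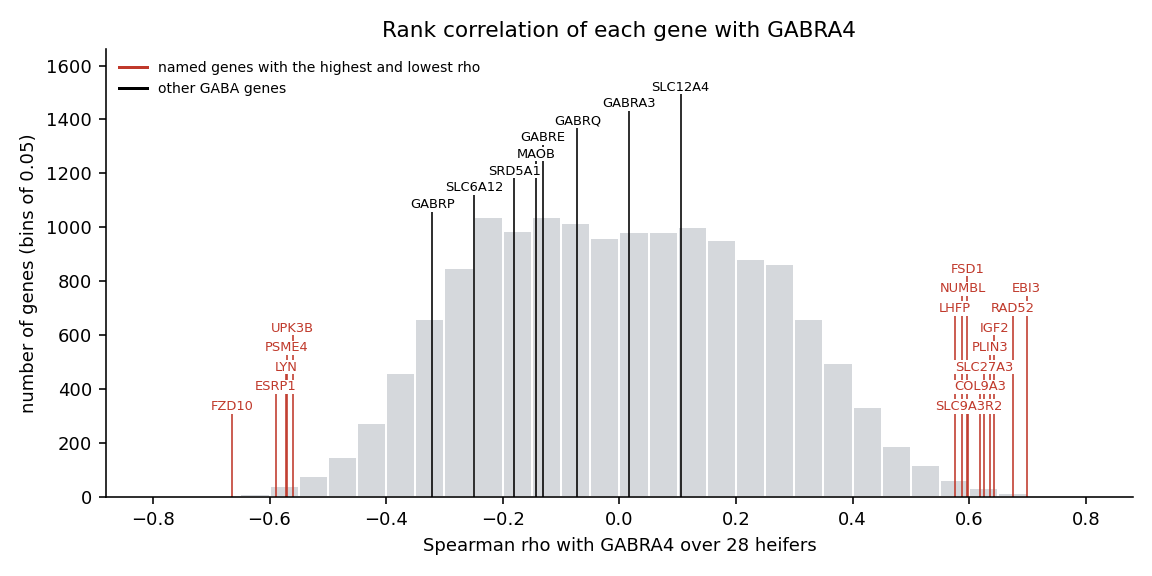
Number of genes (vertical axis) by Spearman's rho with GABRA4 over 28 heifers (horizontal axis), for 15163 genes. Red lines mark the 10 named genes with the highest rho and the 5 with the lowest, and black lines the 8 other GABA genes, which all lie inside the bulk between -0.32 and 0.10.

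EBI3, a cytokine subunit that pairs with other subunits to form interleukins, had the highest rho of any named gene, 0.70. EBI3 had 1.70 to 5.42 CPM in HF heifers (median 3.11), 1.36 to 5.28 in LF (median 1.98) and 0.524 to 2.33 in CTRL (median 1.61). Its 6 highest heifers were the same 6 as those of GABRA4, with HF9 at 5.42, LF8 at 5.28, HF4 at 4.63, HF2 at 4.36, HF10 at 4.10 and HF6 at 3.59, and HF7 next at 2.64 CPM. For EBI3, rho was 0.76 after the treatment means were removed, 0.88 within the 10 HF heifers, 0.44 within LF and 0.31 within CTRL. Within the 22 heifers of low GABRA4 it was 0.39 and within the 6 of high GABRA4 0.49, where the central 90% of all genes ran between -0.83 and 0.83, so that a rho over these 6 heifers says little. On log2 CPM Pearson's r was 0.82, and 0.75 without the 2 heifers farthest from the median of GABRA4. EBI3 was picked for its high rho over the same heifers, so its shared highest heifers and these values are a description only.

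The next in order were RAD52, a DNA repair protein (rho 0.67), IGF2, a growth factor (0.64), PLIN3, a lipid droplet coat protein (0.64), SLC27A3, of the fatty acid transport family (0.63), COL9A3, a chain of collagen IX (0.62), the scaffold protein SLC9A3R2 (0.60), the microtubule-associated FSD1 (0.60), NUMBL, related to the Notch regulator NUMB (0.59), and the membrane protein LHFP (0.58). When 1 heifer was left out at a time, the rho of these 10 named genes stayed between 0.53 and 0.77. They were picked for high rho over the same heifers, so this range is a description only. With treatment means removed, rho was 0.49 for RAD52, 0.69 for IGF2, 0.65 for PLIN3, 0.57 for SLC27A3 and 0.56 for COL9A3. It was 0.45 for SLC9A3R2, 0.48 for FSD1, 0.61 for NUMBL and 0.57 for LHFP. The study called EBI3, SLC27A3, COL9A3 and FSD1 in its HF comparisons. Treatment also chose GABRA4, so rho over 28 heifers can carry treatment differences. IGF2 had 330 to 1415 CPM in HF heifers (median 449), 242 to 1006 in LF (median 377) and 205 to 440 in CTRL (median 317), and its highest heifers were HF9 and LF8, as for GABRA4. COL9A3 had 11.6 to 102 CPM in HF heifers (median 31.4), 7.02 to 19.4 in LF (median 12.4) and 4.42 to 37.3 in CTRL (median 13.2). COL9A3 shared 5 of its 6 highest heifers with GABRA4 and parted from it at LF8, which had 12.9 CPM of COL9A3, near the LF median.

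Within the 10 HF heifers the highest rho of any named gene belonged to LHFP (0.98), which had 53.4 to 126 CPM there, followed by EBI3 (0.88), PLIN3 (0.87), SLC9A3R2 (0.87) and, tied at 0.85, COL9A3 and PTGDS, the prostaglandin D2 synthase. Among all 15163 genes 98% had a rho between -0.68 and 0.78 within the 10 HF heifers. Within the 10 LF heifers rho was -0.01 for LHFP and 0.03 for PTGDS, against 0.74 for IGF2 and 0.71 for NUMBL. PTGDS had 221 to 554 CPM in HF heifers (median 303), 109 to 423 in LF (median 194) and 88.8 to 189.1 in CTRL (median 145). The difference in rho between treatments was not tested. RAD52 kept a rho of 0.57 within the 22 heifers of low GABRA4 (central 90% of all genes between -0.34 and 0.33) and had -0.37 within the 6 of high GABRA4, inside the wide range of all genes there.

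**Figure D5:**
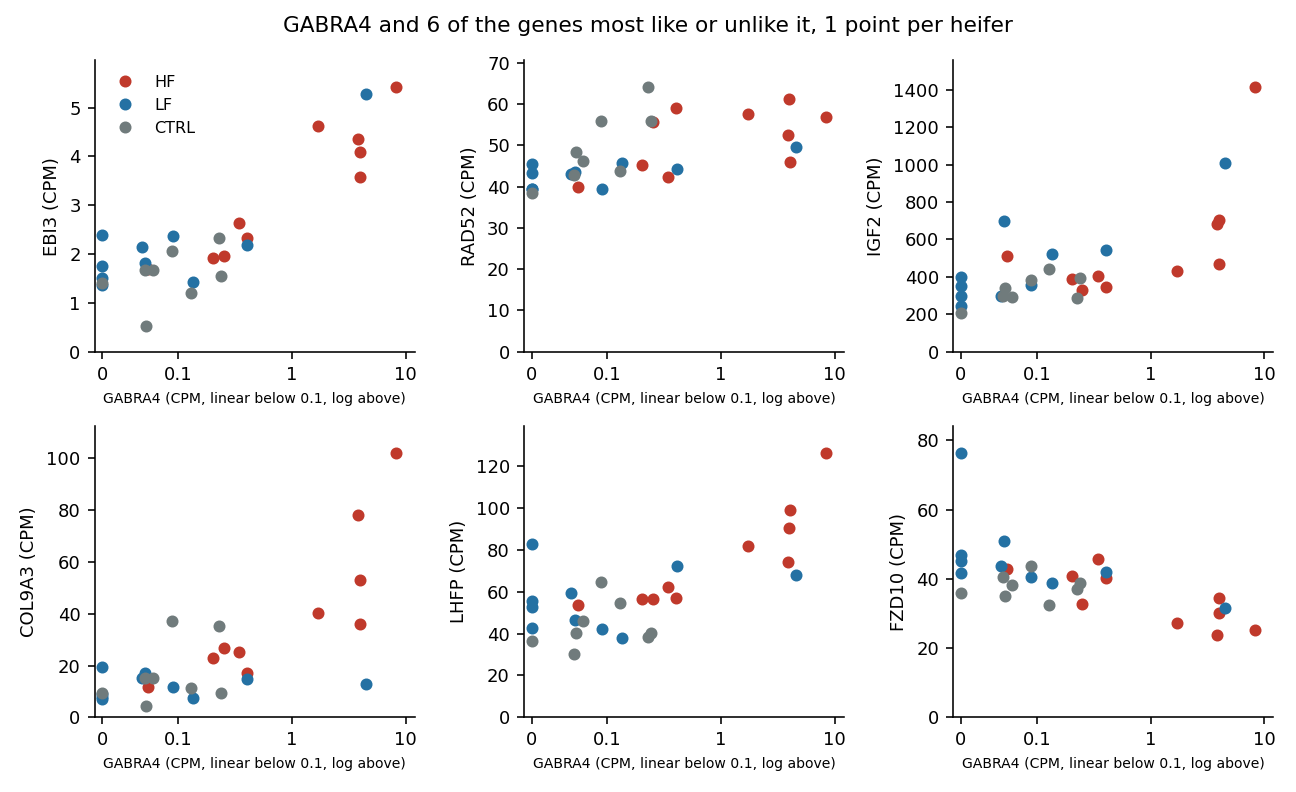
CPM of EBI3, RAD52, IGF2, COL9A3, LHFP and FZD10 (vertical axes, from 0) against GABRA4 (horizontal axis, linear below 0.1 CPM and log above) in 28 heifers, coloured by treatment. The 6 heifers above 1 CPM of GABRA4 are the 6 highest for EBI3, and 5 of them are among the 6 lowest for FZD10, while LF8 lies low for COL9A3.

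At the other end, FZD10, a Wnt receptor, had the lowest rho of any named gene (-0.66), followed by ESRP1, an epithelial splicing regulator (-0.59), the Src-family kinase LYN (-0.57), the proteasome activator PSME4 (-0.57) and the uroplakin UPK3B (-0.56). FZD10 had 23.9 to 45.8 CPM in HF heifers (median 33.5), 31.6 to 76.4 in LF (median 42.9) and 32.4 to 43.6 in CTRL (median 37.6), and 5 of its 6 lowest heifers were among the 6 with the most GABRA4. Within the 22 heifers of low GABRA4 the rho of FZD10 was -0.35. With treatment means removed, rho was -0.66 for FZD10, -0.69 for ESRP1, -0.30 for LYN, -0.58 for PSME4 and -0.42 for UPK3B. ESRP1 had 38.2 to 95.3 CPM in HF heifers (median 59.9), 56.0 to 88.0 in LF (median 81.99) and 49.9 to 85.3 in CTRL (median 63.3), and 3 of its 6 lowest heifers were among the 6 with the most GABRA4. These genes were picked for low rho over the same heifers, so the shared heifers are a description only.

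The summed markers of other cell types had a rho with GABRA4 between -0.38 and 0.42. The stromal markers at hand (2 of 11, VIM and FBLN1) summed to 3173 to 4734 CPM in HF heifers, 2493 to 4462 in LF and 2086 to 3729 in CTRL, with a rho of 0.42 against GABRA4. The epithelial markers (2 of 12, KRT8 and SPP1) summed to 87.2 to 192 CPM in HF, 130 to 254 in LF and 54.7 to 197 in CTRL, with a rho of -0.38. The neuron markers (2 of 14, STMN2 and UCHL1) summed to 12.5 to 97.5 CPM in HF, 7.02 to 29.5 in LF and 3.14 to 68.7 in CTRL, with a rho of 0.20, and for ciliated cells (3 of 10) rho was 0.13. Each of the markers read had counts in every heifer. For total counts rho was 0.24. The part of stroma, epithelium or depth in the GABRA4 values was not tested, and no marker of sperm, leukocytes or endothelium has a name in the sources used here.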

How the data were processed

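The authors trimmed the reads of stranded mRNA libraries, aligned them to ARS-UCD1.2 with STAR and deposited whole-number counts per Ensembl gene for each heifer, with no normalization. STAR 2.6.1b and Subread 1.6.3 appear in the processing notes of the submitters, and no source used here gives the strand setting of the counting. Treatment and number came from the labels, and bull, breed and study replicate from the study's animal table. Names for 1522 IDs came from the study's tables, mostly rows sorted by p-value of LF against CTRL. The RefSeq table (ARS-UCD2.0) matched 0 IDs and gave neighbours only. Sequences of GABRA4 were not used here.

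CPM used TMM factors over 28 heifers, log2 CPM a prior count of 2, and intervals are exact Poisson intervals (95%), a count of 0 allowing 3 counts. PCR duplicates were not marked by molecular identifiers, so intervals cover counting error only. Pairs of treatments were fitted in R 4.3.3 with edgeR 4.0.16 (filterByExpr at a minimum count of 10, glmQLFTest, adjusted p under 0.05) and, as the alternative, DESeq2 1.42.0. The SE of an edgeR log2 fold change is its size over the square root of F. The fits of pairs of treatments and the calculation of rho were tested on simulated data, and the other steps were not. In 118 pairs of heifers of a treatment, chi-square per degree of freedom was at least 18.4. So no 2 libraries of a treatment agreed within sampling noise, and pairs across treatments were not compared. Heifers are separate animals, but heifers of 1 bull share semen. GABRA4, the gene lists and the rule for named genes were chosen with earlier results of these data known. Named were GABRA4, GABA-A subunits with a mean of at least 0.1 CPM in some treatment, other GABA genes that were called or among the 2 most abundant of their list, the 10 named genes with the highest and the 5 with the lowest rho over 28 heifers, the 5 with the highest rho over HF heifers, and the genes nearest to GABRA4. Alternatives were RLE factors, total counts, other filters, all heifers in one fit, the replicate block, study replicate or breed as covariates, other summaries, and leaving out each heifer.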

Additional observations from a re-analysis of the deposited data

Results flagged for a closer look

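For 78 sets of values (26 named genes in 3 treatments), the highest or lowest heifer was compared with its nearest neighbour by Dixon's criterion. For normally distributed values, chance sets 1 heifer apart in about 1 of 20 such sets, but the CPM used here were not transformed. In 16 sets 1 heifer stood apart, a count that cannot be read against chance, since GABRA4 was chosen for its spread among heifers and many of the other genes for their likeness to it.

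As a description of the values that chose it, GABRA4 stood apart in LF8 (4.51 CPM, next LF heifer 0.406) and in HF9 (8.30 CPM, next HF heifer 4.0001). LF8 also stood apart for EBI3 (5.28 CPM, next 2.39) and for SLC6A12 (4.95 CPM, next 2.77), and HF9 for IGF2 (1415 CPM, next 705) and PTGDS (554 CPM, next 387). Among other GABA receptor genes, GABRE (27.2 CPM, next 16.9) and GABRP (9.99 CPM, next 4.68) were highest in HF4, and GABRQ in HF1 (1.61 CPM, next 0.761). CTRL1 stood apart for SLC6A12 (2.79 CPM, next 1.15), SLC12A4 (268 CPM, next 171) and NUMBL (103 CPM, next 63.3). The other heifers were HF7 for SRD5A1 (22.9 CPM, next 14.9), LF5 for FZD10 (76.4 CPM, next 50.9), LF7 for PTGDS (423 CPM, next 267) and, at the low end, LF7 for COMMD8 (6.48 CPM, next 13.1).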

How the results depend on the processing

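The GABRA4 ratio of HF to CTRL stayed between 5.82 and 27.8 under every scaling, summary and subset tried, and between 15.1 and 25.6 with 1 heifer left out. The LF to CTRL ratio did not hold its direction. It was 0.686 for medians, 0.922 and 1.13 for mean log2 CPM with prior counts of 0.5 and 2, 0.575 within study replicate 1 and 8.30 within study replicate 2, 1.08 within Limousin crosses and 10.7 within the other breeds, and 0.759 (without LF8) to 5.84 with 1 heifer left out. The HF to LF ratio was 19.3 for medians, 22.9 within study replicate 1 and 3.35 within study replicate 2, 21.1 within Limousin crosses and 2.22 within the other breeds, and 3.12 to 27.9 (without LF8) with 1 heifer left out.

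In place of 0 genes called by edgeR, DESeq2 called 328 in HF against CTRL, 2 in LF against CTRL and 27 in HF against LF. With 1 heifer left out, edgeR called 0 to 91 genes in HF against CTRL (91 without CTRL2), and DESeq2 91 to 869 in HF against CTRL, 0 to 16 in LF against CTRL and 7 to 155 in HF against LF. Of the 8 other GABA genes, 0 to 1 were called with a heifer left out. The 1 call was MAOB by DESeq2 without CTRL2, the fit that called 869 of 15807 genes. Of the 10 named genes with the highest rho, 6 were kept by Pearson's r, 5 after treatment means were removed and 6 in HF heifers alone. All 10 were kept in an added alternative, chosen after seeing the data, with genes of at least 10 counts in total. That alternative could change little. It left the rho of each gene as it was, and 1513 of the 1522 named IDs were already included. Among uncalled genes, some log2 fold changes changed sign with a heifer left out. These ran between -0.63 and 0.14 for GABRA3 and between -0.082 and 0.77 for SLC6A12 in HF against CTRL, and in HF against LF between -0.31 and 0.044 for GABRE and between -0.23 and 0.17 for MAOB. The causes were not tested.

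Deviations from the treatment means correlated above 0.1 between heifers of equal number in 5 of 8 HF and CTRL pairs, 4 of 8 LF and CTRL pairs and 5 of 10 HF and LF pairs, so the numbers were not used as pairs. With the replicate block edgeR called 0 genes in each comparison and 0 of the GABA genes, and the HF against CTRL log2 fold change was 0.069 for GABRA3 and 0.18 for GABRQ, in place of -0.37 and -1.30. The counts of GABRA4 in 22 heifers were 8 or fewer, which limits any order among them.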
